A study of Mus musculus with 9 samples.

Results

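Antigen presentation and interferon signalling were described through 55 genes among 14860 measured in mouse embryonic stem cell derivatives. They were chosen by name alone: a symbol starting with H2-, Ifit, Ifitm or Ifi, an Irf or Stat gene with a number, or 1 of a short set holding B2m, Tap1, Tap2, Tapbp, Isg15, Ddx58, Ifih1, Bst2 and the interferon receptor genes. A gene entered only if a transcript cluster of the array, the probe group that gives 1 value per gene, carried its symbol and no other. H2-K1, H2-D1, Isg15, Ifitm1 and Ifitm2 are not among the 55 genes, since no cluster used here carried their symbol alone. By role, the 55 genes were 4 for class I assembly, 10 class I and 5 class II histocompatibility genes, 4 receptor genes, 6 STAT and 8 IRF factors, 2 RNA sensors, 2 IFIT, 4 IFITM and 3 Ifi200 genes, 6 other effectors, and H2-Ke6, which has an H2- name but encodes a metabolic enzyme.

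The cells came from the E14.1 line of 129/Ola mouse embryonic stem cells, differentiated towards the heart. Flk1+Pdgfra+ cells and Flk1+ cells, the latter sorted as Flk1+Pdgfra-, were progenitors separated by these surface receptors. The cTnT+ cells, cardiomyocytes carrying cardiac troponin T, were grown on from the Flk1+Pdgfra+ cells, and the labels do not say how they were purified. Each group had 3 Affymetrix Mouse Exon 1.0 ST arrays. All groups thus shared 1 cell line and 1 genetic background, no agent is named for any group, and whether replicate arrays were hybridised with RNA of separate differentiations is not stated, although the design text says that no technical replicates were made. The p-values therefore measure the spread between these arrays.

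Class I histocompatibility molecules carry peptides to the cell surface on a heavy chain held by B2m, after Tap1 and Tap2 have pumped the peptides into the endoplasmic reticulum and tapasin, the product of Tapbp, has helped to load them. Type I interferon binds Ifnar1 with Ifnar2 and interferon gamma binds Ifngr1 with Ifngr2, and kinases of the Jak family then phosphorylate STAT proteins. Complexes that hold Stat2 and Irf9 bind the interferon-stimulated response element (ISRE), the gamma-activated site (GAS) is the element of the interferon gamma response, and embryonic stem cells are known for a weak response to interferon and low class I display.

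Promoters of 49 of the 55 genes had a RefSeq sequence (assembly GRCm38.p6), as windows from 250 bases before to 50 after the transcript start. The letters of an ISRE core, which are GAAA, any 2 bases and GAAA again, read on both strands with overlapping matches kept, were present in 11 of these 49 genes (22.4%) and in 1079 of 27025 genes with a window (3.99%). The letters of a GAS, TTCNNNGAA, were present in 11 genes (22.4%) against 2582 of all genes (9.55%). A match describes the letters in a window and is not a measured site. The windows below are those of members on which the results turn, printed along the gene's strand with matches of either strand in capitals. B2m, Irf2, Stat2, Stat4 and Ddx58 hold an ISRE core and were higher in cTnT+ than in Flk1+Pdgfra+ cells, while Bst2, Ifih1, Ifitm3, Ifi203 and Ifi205 hold one too and were called in no comparison. Ifnar1, Ifnar2, Ifit2, Irf2 and Ifi35 hold a GAS and were higher in cTnT+ than in Flk1+Pdgfra+ cells. Irf1, Irf8, Bst2, Ifitm3, H2-M11 and Ifi202b hold a GAS and were called in no comparison. Ifit1 holds 2 ISRE cores and read below the lower quartile of all arrays in every group.
B2m, chr2:122147437-122147736, plus strand: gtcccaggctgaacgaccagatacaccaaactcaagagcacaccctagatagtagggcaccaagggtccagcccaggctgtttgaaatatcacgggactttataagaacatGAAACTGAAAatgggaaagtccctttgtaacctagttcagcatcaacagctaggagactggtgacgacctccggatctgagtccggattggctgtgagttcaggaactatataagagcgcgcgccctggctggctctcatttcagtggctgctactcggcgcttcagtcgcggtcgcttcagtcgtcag
Irf2, chr8:46739495-46739794, plus strand: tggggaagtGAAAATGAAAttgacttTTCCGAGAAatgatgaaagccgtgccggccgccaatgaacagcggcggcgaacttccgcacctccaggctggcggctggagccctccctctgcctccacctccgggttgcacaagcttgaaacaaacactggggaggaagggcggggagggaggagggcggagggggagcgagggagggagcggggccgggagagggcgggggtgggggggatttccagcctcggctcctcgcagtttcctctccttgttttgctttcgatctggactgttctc
Stat2, chr10:128270248-128270547, plus strand: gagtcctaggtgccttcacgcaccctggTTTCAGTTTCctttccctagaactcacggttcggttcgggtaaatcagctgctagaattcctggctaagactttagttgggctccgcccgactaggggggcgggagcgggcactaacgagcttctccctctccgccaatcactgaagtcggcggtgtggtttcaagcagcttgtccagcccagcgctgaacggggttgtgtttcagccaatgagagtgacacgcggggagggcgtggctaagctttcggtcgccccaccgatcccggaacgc
Ddx58, chr4:40239776-40240075, minus strand: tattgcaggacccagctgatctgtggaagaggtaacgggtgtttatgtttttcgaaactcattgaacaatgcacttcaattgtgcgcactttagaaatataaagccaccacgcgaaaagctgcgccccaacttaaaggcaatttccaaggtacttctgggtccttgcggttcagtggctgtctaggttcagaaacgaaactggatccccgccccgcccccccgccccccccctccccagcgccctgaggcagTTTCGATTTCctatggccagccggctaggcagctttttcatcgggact
Irf1, chr11:53769764-53770063, plus strand: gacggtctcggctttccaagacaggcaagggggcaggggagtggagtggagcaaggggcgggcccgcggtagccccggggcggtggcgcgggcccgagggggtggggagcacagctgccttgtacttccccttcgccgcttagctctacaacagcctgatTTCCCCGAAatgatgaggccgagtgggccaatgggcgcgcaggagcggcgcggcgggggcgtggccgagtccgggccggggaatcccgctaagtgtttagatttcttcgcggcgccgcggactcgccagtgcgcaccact
Ifit1, chr19:34640639-34640938, plus strand: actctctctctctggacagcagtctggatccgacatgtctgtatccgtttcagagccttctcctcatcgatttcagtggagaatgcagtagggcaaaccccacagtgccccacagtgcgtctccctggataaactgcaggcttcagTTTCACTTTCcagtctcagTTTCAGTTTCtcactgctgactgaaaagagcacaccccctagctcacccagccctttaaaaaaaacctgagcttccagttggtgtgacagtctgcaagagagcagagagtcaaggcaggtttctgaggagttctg
The ISRE core of B2m starts 139 bases before the transcript start, that of Stat2 222 bases before it and that of Irf2 241 bases before it. In Ddx58 the core lies just after the start. Irf2 also holds a GAS match, whose letters start 224 bases before the transcript start, and Irf1 holds its GAS match 90 bases before the start. The ISRE cores of Ifit1 start 104 and 85 bases before the transcript start.

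Values were the deposited log2 RMA levels, and array medians lay between 7.26 and 7.53. Flk1 (Kdr) read 11.98 ± 0.25 in Flk1+Pdgfra+ and 12.30 ± 0.16 in Flk1+ cells (mean ± SD, n = 3), and Pdgfra read 11.35 ± 0.42 against 6.96 ± 0.40. All 10 measured cardiomyocyte markers (12 listed) passed as higher in cTnT+ cells than in either progenitor group. Beside them, 22.5% of all genes were called higher against Flk1+Pdgfra+ and 22.6% against Flk1+ cells. The third Flk1+ array stood apart from its group: its mean over 8 pluripotent cell markers was 9.30 against 6.59 and 6.94, and its mean over 12 endothelial markers was 10.5 against 11.6 and 11.7. Its mean was also higher over 7 nascent mesoderm markers (9.69 against 8.47 and 8.61) and 7 endoderm and epithelial markers (8.49 against 7.14 and 7.28). Over 12 fibroblast and smooth muscle markers it was 7.70 against 6.55 and 6.54. The third Flk1+Pdgfra+ array had an endothelial mean of 6.87 against 8.45 and 8.60. Several results that rest on either array are given with and without it.

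A difference was called where limma's moderated test, fitted to all 9 arrays and adjusted by Benjamini-Hochberg over 14860 genes, gave an adjusted p under 0.05. Of the 55 genes, 25 were called in at least 1 comparison and 30 in none. A group mean below 5.60, the lowest lower quartile of any array, is named dim here, and 16 of the 55 genes were dim in all 3 groups. None of these 16 was called. Because an array holds RNA of all its cells, fewer cells of a type and less RNA per cell cannot be told apart in any result below. Fold changes between comparisons are not independent, since every pair of comparisons shares 3 arrays.

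**Figure D1:**
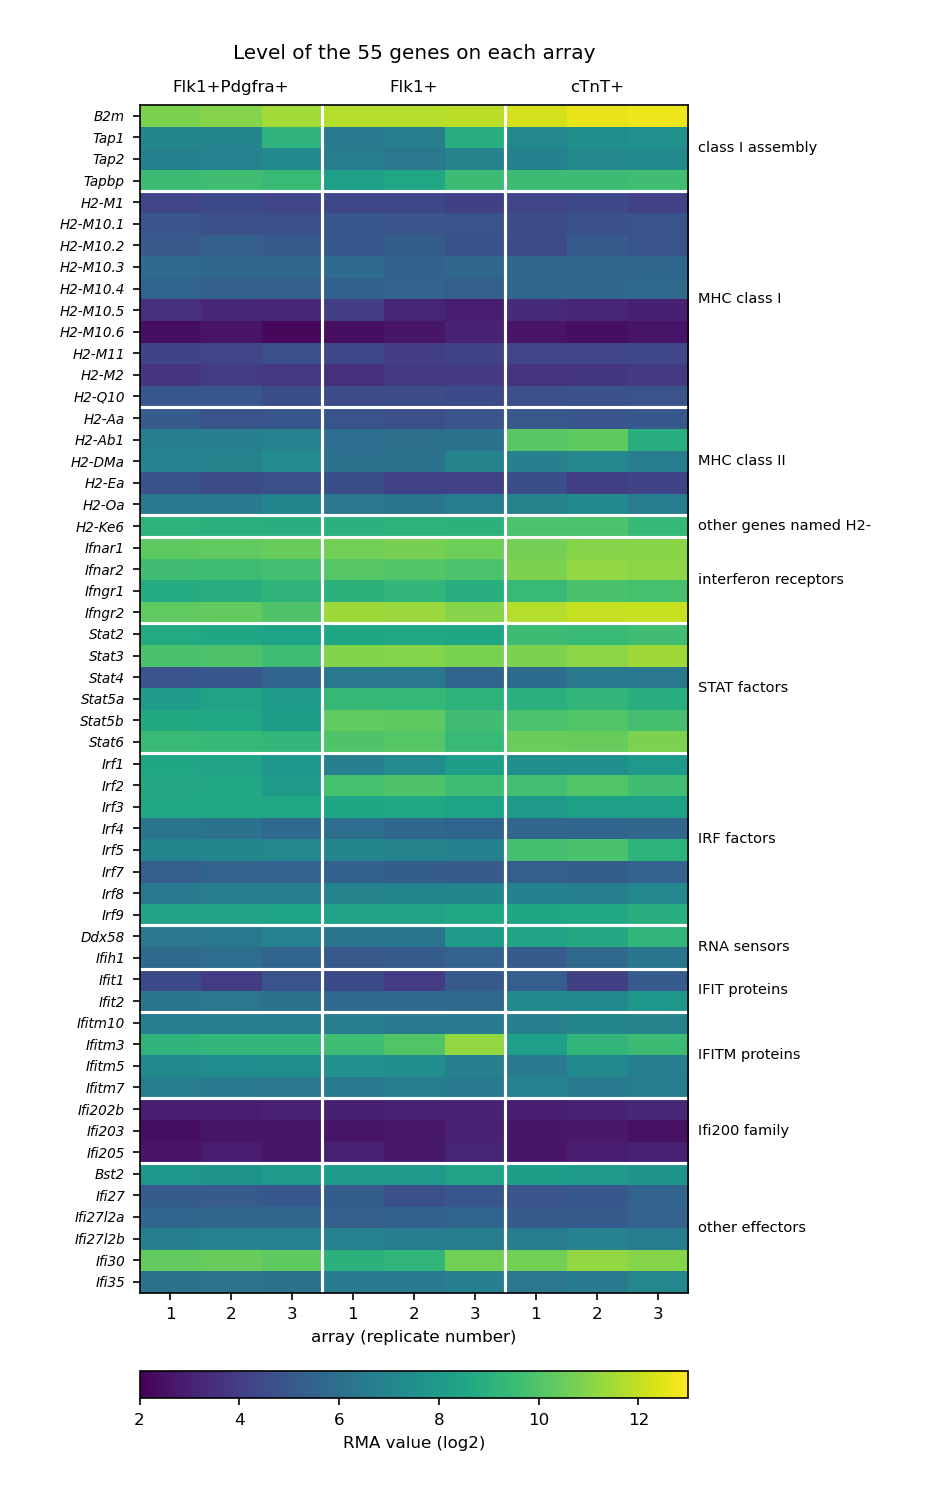
Heat map of the log2 RMA level of the 55 genes (by role) on the 9 arrays (columns, by group and replicate number), with colour from 2 to 13. H2-Ab1 and Irf5 are brighter on the cTnT+ arrays, Tap1 is bright on the third array of both progenitor groups, and the Ifi200 genes and most class I genes are dark on all arrays.

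Among the progenitors, Flk1+Pdgfra+ cells carried lower levels of B2m, Ifngr2, Irf2, Stat3, Stat5a and Stat5b than Flk1+ cells, by 1.63-fold to 3.10-fold. These 6 lower calls were 10.9% of the 55 genes, beside 10.5% of all genes called in either direction and 5.87% called lower, so the share called was near the background. None of the 55 genes was called higher with limma (background 4.64%), although 4 were higher and 13 lower at an unadjusted p under 0.05. Without the third Flk1+ array, 4 genes were called higher, and other fits called between 0 and 19 (the latter with array weights). The background rose too: of all 14860 genes, 690 were called higher in the reported fit, 1306 without that array and 4521 with array weights. The median difference of the 55 genes was 0.03 on the log2 scale, beside 0.07 over all genes. Groups did not overlap for 20 of the 55 genes, beside 34.3% of all genes.

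Between cTnT+ and Flk1+Pdgfra+ cells, 19 of the 55 genes were higher in cTnT+ cells and 3 were lower. This was 40% of the genes, beside 41.2% of all genes, of which 22.5% were called higher and 18.7% lower. The 19 higher genes held all 4 receptor genes, all 6 STAT genes, B2m, H2-Ab1, Irf2, Irf5, Ddx58, Ifit2 and, by less than 1 log2 unit, H2-Ke6, Ifi35 and H2-M10.4. Their fold changes ran from 1.23 to 8.07, whereas the 3 lower genes, Irf3, Irf4 and Ifi27l2a, differed by 1.28-fold to 1.36-fold. The median difference of the 55 genes was 0.15, beside 0.0043 over all genes, and groups did not overlap for 27 genes, beside 54.9% of all genes.

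Between cTnT+ and Flk1+ cells, 15 genes were higher in cTnT+ cells and 1, Irf3, was lower. This was 29.1% of the 55 genes, beside 39.2% of all genes, with 22.6% of all genes called higher and 16.6% lower. The 7 with a difference of at least 1 log2 unit were Ifit2, Ifnar2, Irf5, H2-Ab1, Ifi30, Ddx58 and Stat2. The median difference was 0.12, beside 0.05 over all genes, and groups did not overlap for 19 genes, beside 47.4% of all genes.

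**Figure D2:**
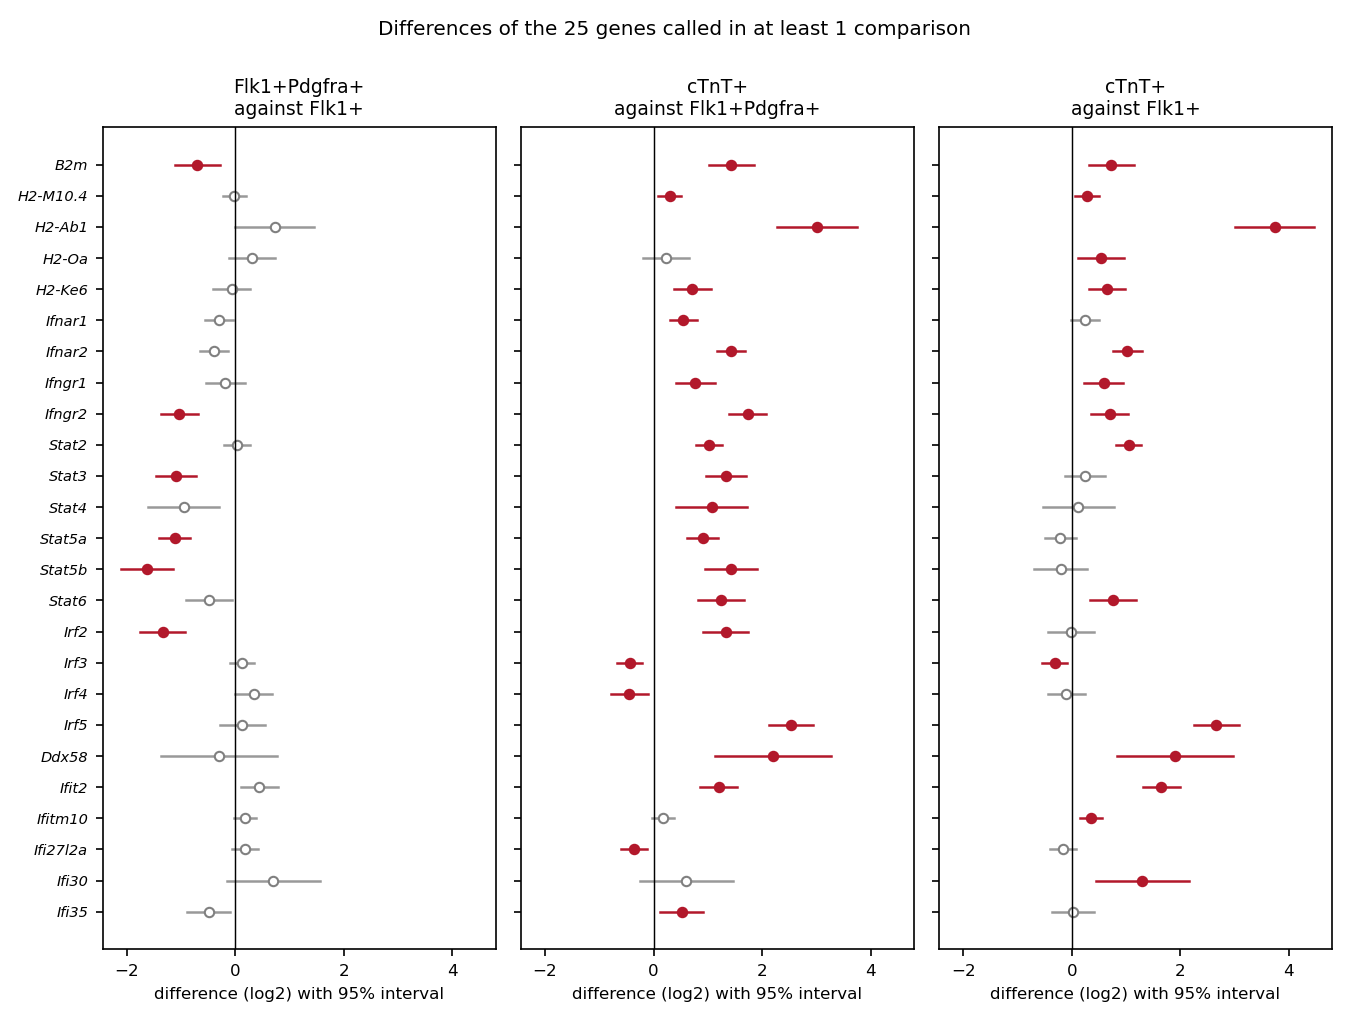
Difference in log2 level (horizontal axis) with its unadjusted 95% interval for the 25 genes called in at least 1 comparison, 1 panel per comparison and the same scale in all. Red filled points passed the adjusted threshold and grey open points did not. The 6 red points of the progenitor panel lie left of 0, and 19 of the 22 in the middle panel lie right of it.

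The interferon receptor genes were all higher in cTnT+ than in Flk1+Pdgfra+ cells, and 3 of the 4 were higher than in Flk1+ cells. Ifngr2, the signalling chain of the interferon gamma receptor, read 10.32, 10.34 and 9.98 in Flk1+Pdgfra+, 11.38, 11.35 and 11.01 in Flk1+ and 11.76, 12.02 and 12.06 in cTnT+ cells. The groups did not overlap and stood in this order. Ifngr2 was 2.05-fold lower in Flk1+Pdgfra+ than in Flk1+ cells (adjusted p = 0.00476), 3.32-fold higher in cTnT+ than in Flk1+Pdgfra+ cells (adjusted p = 6.07e-05) and 1.63-fold higher than in Flk1+ cells (adjusted p = 0.00589). Ifnar2, which with Ifnar1 binds type I interferon, read 9.61, 9.59 and 9.69 in Flk1+Pdgfra+, 10.12, 10.05 and 9.90 in Flk1+ and 10.84, 11.22 and 11.10 in cTnT+ cells. All cTnT+ arrays lay above all progenitor arrays. The difference was 2.68-fold from Flk1+Pdgfra+ (adjusted p = 4.58e-05) and 2.04-fold from Flk1+ cells (adjusted p = 0.000263), while the progenitor groups, at -0.40 log2 between them, were not called (adjusted p = 0.0643). The progenitor difference of Ifnar2 passed without the third Flk1+ array (log2 -0.46, adjusted p = 0.0438). Ifnar2 also passed there without the first cTnT+ array, in a fit of the 6 arrays compared or with array weights (adjusted p from 0.000243 to 0.0396).

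Smaller differences were measured for the remaining receptor chains. Ifnar1 read 10.29, 10.32 and 10.46 in Flk1+Pdgfra+, 10.67, 10.75 and 10.57 in Flk1+ and 10.70, 10.98 and 11.04 in cTnT+ cells. Its cTnT+ arrays all lay above the Flk1+Pdgfra+ arrays, by 1.46-fold (adjusted p = 0.00451). The cTnT+ and Flk1+ arrays of Ifnar1 overlapped, with a difference of 0.25 log2 (95% interval -0.01 to 0.50, adjusted p = 0.12). Without the first cTnT+ array this difference passed (log2 0.35, adjusted p = 0.0276). Ifngr1, the ligand-binding chain for interferon gamma, read 8.76, 8.84 and 9.15 in Flk1+Pdgfra+, 9.07, 9.29 and 8.95 in Flk1+ and 9.43, 9.85 and 9.79 in cTnT+ cells. Its cTnT+ arrays were the 3 highest, by 1.71-fold over Flk1+Pdgfra+ (adjusted p = 0.00445) and by 0.59 log2 over Flk1+ cells (adjusted p = 0.0173). For Ifngr1, the call in cTnT+ against Flk1+ cells did not hold without the first Flk1+ or the second or the third cTnT+ array or with median centring (adjusted p from 0.0519 to 0.0597).

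In the order of protein-coding genes in RefSeq GRCm38.p6, Ifnar2, Il10rb, Ifnar1 and Ifngr2 are direct neighbours on chromosome 16. Il10rb, a receptor chain used by interferon lambda that is not among the 55 genes, read 6.79, 6.74 and 7.44 in Flk1+Pdgfra+, 8.47, 8.72 and 8.71 in Flk1+ and 10.19, 10.58 and 10.40 in cTnT+ cells. All 4 neighbours were therefore called higher in cTnT+ than in Flk1+Pdgfra+ cells, with Il10rb at 10.6-fold (adjusted p = 1.22e-05). Il10rb was also called lower in Flk1+Pdgfra+ than in Flk1+ cells, by 3.13-fold (adjusted p = 0.0023), as Ifngr2 was.

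All 6 STAT genes were higher in cTnT+ than in Flk1+Pdgfra+ cells, but they differed in their Flk1+ levels. Stat3, Stat5a and Stat5b, which carry signals of many cytokines besides interferon, were lower in Flk1+Pdgfra+ cells than in both other groups, and their cTnT+ and Flk1+ levels were not called different. Stat5b read 8.67, 8.53 and 8.13 in Flk1+Pdgfra+, 10.33, 10.28 and 9.63 in Flk1+ and 9.89, 9.99 and 9.74 in cTnT+ cells. The Flk1+Pdgfra+ arrays were the 3 lowest, and the third Flk1+ array lay below every cTnT+ array. Stat5b was 3.10-fold lower in Flk1+Pdgfra+ than in Flk1+ cells (adjusted p = 0.00321) and 2.69-fold higher in cTnT+ than in Flk1+Pdgfra+ cells (adjusted p = 0.000906). The cTnT+ and Flk1+ groups differed by -0.20 log2 (95% interval -0.69 to 0.28), which passed as lower in cTnT+ cells without the third arrays of both progenitor groups (log2 -0.43, adjusted p = 0.0179).

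Stat5a and Stat3 were likewise lowest in Flk1+Pdgfra+ cells. Stat5a read 8.09, 8.33 and 8.02 in Flk1+Pdgfra+, 9.35, 9.31 and 9.13 in Flk1+ and 8.99, 9.24 and 8.94 in cTnT+ cells. It was 2.17-fold lower in Flk1+Pdgfra+ than in Flk1+ cells (adjusted p = 0.00204) and 1.88-fold higher in cTnT+ than in Flk1+Pdgfra+ cells (adjusted p = 0.000585). Stat3 read 9.83, 9.93 and 9.59 in Flk1+Pdgfra+, 10.91, 10.95 and 10.77 in Flk1+ and 10.84, 11.08 and 11.45 in cTnT+ cells. Its Flk1+Pdgfra+ arrays were the 3 lowest, while its Flk1+ and cTnT+ arrays overlapped. The differences were 2.13-fold (adjusted p = 0.0053) and 2.53-fold (adjusted p = 0.000312). Stat5b, Stat5a and Stat3 are direct neighbours on chromosome 11.

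Stat2, the partner of Irf9 in the type I interferon response, was called in cTnT+ cells against each progenitor group and not between the progenitors. It read 8.71, 8.50 and 8.37 in Flk1+Pdgfra+, 8.50, 8.54 and 8.45 in Flk1+ and 9.52, 9.47 and 9.65 in cTnT+ cells. The progenitor groups overlapped, and every cTnT+ array lay above them, by 2.03-fold (adjusted p = 0.000133) and 2.07-fold (adjusted p = 0.000149). Stat6, which carries signals of cytokines made in allergic responses, read 9.40, 9.38 and 9.29 in Flk1+Pdgfra+, 9.99, 10.11 and 9.42 in Flk1+ and 10.50, 10.44 and 10.84 in cTnT+ cells. Its cTnT+ arrays were the 3 highest, by 2.36-fold over Flk1+Pdgfra+ (adjusted p = 0.000949) and 1.69-fold over Flk1+ cells (adjusted p = 0.0117). The progenitor difference of Stat6, -0.48 log2 with an adjusted p of 0.144, passed without the third Flk1+ array (log2 -0.69, adjusted p = 0.0123). Stat6 also passed in Flk1+Pdgfra+ against Flk1+ cells without the third arrays of both progenitor groups or with array weights (adjusted p from 0.000202 to 0.0337).

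Stat4, a factor known from cytokine signalling in lymphocytes, was lowest in Flk1+Pdgfra+ cells. It read 4.92, 4.99 and 5.60 in Flk1+Pdgfra+, 6.41, 6.40 and 5.57 in Flk1+ and 5.88, 6.46 and 6.40 in cTnT+ cells. Its mean in Flk1+Pdgfra+ cells was dim, so the 2.10-fold rise in cTnT+ cells (adjusted p = 0.0164) is no exact measure. Stat4 was no longer called in cTnT+ against Flk1+Pdgfra+ cells without the first or the second Flk1+Pdgfra+ or the second or the third cTnT+ array (adjusted p from 0.052 to 0.0615). The progenitor difference of -0.95 log2 missed the threshold (adjusted p = 0.0731) and passed without the third Flk1+ array (log2 -1.23, adjusted p = 0.0145). Stat4 also passed in Flk1+Pdgfra+ against Flk1+ cells without the third arrays of both progenitor groups or with array weights (adjusted p from 5.29e-05 to 0.00538).

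**Figure D3:**
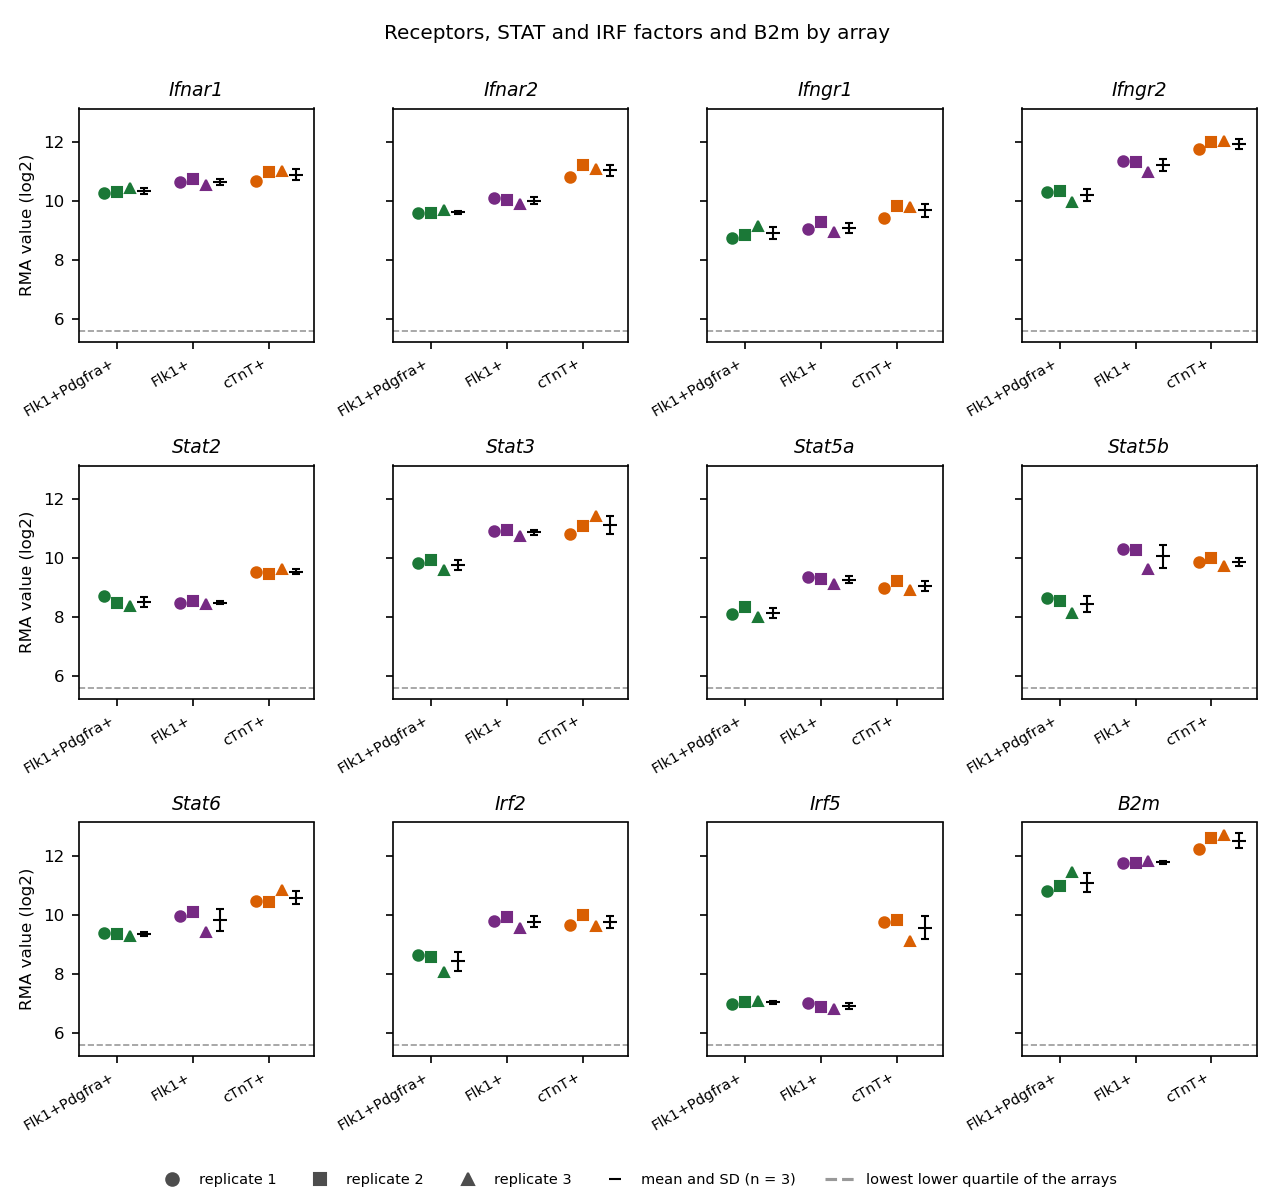
Log2 RMA level of 12 genes by array: symbols mark replicate numbers, the black bar the mean and SD of 3 arrays, and the dashed line the lowest lower quartile of the arrays (5.60). Stat3, Stat5a, Stat5b and Irf2 are low in Flk1+Pdgfra+ cells, whereas Stat2, Irf5 and Ifnar2 are high in cTnT+ cells.

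Among the IRF factors, Irf5 and Irf2 differed most. Irf5, a factor of innate immune cells, read 6.98, 7.07 and 7.10 in Flk1+Pdgfra+, 7.02, 6.90 and 6.83 in Flk1+ and 9.77, 9.85 and 9.12 in cTnT+ cells. The progenitor arrays overlapped and every cTnT+ array lay above them, by 5.79-fold over Flk1+Pdgfra+ (adjusted p = 2.72e-05) and 6.34-fold over Flk1+ cells (adjusted p = 3.12e-05). Irf2, which can repress genes that Irf1 activates, read 8.65, 8.59 and 8.07 in Flk1+Pdgfra+, 9.80, 9.96 and 9.58 in Flk1+ and 9.66, 10.01 and 9.64 in cTnT+ cells. It was lowest in Flk1+Pdgfra+ cells, by 2.53-fold against Flk1+ (adjusted p = 0.00391) and 2.52-fold against cTnT+ cells (adjusted p = 0.000612). Between cTnT+ and Flk1+ cells its difference was -0.01 log2 (95% interval -0.43 to 0.41).

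Irf1, an interferon gamma target that activates class I genes, read 8.46, 8.32 and 7.78 in Flk1+Pdgfra+, 6.80, 7.32 and 8.16 in Flk1+ and 7.39, 7.54 and 7.94 in cTnT+ cells. It was not called in any comparison, and the third Flk1+ array lay within the Flk1+Pdgfra+ range. Without that array Irf1 was called higher in Flk1+Pdgfra+ than in Flk1+ cells (log2 1.13, adjusted p = 0.026, against 0.76 and 0.202 with it). Irf1 also passed in Flk1+Pdgfra+ against Flk1+ cells without the third arrays of both progenitor groups or with array weights (adjusted p from 0.000566 to 0.0137). The difference of Irf1 in cTnT+ against Flk1+Pdgfra+ cells passed without the third arrays of both progenitor groups or with array weights (adjusted p from 0.0267 to 0.04). Irf9, the DNA-binding partner of Stat2, read 8.41, 8.43 and 8.39 in Flk1+Pdgfra+, 8.35, 8.42 and 8.59 in Flk1+ and 8.45, 8.57 and 8.92 in cTnT+ cells, within 0.24 log2 between group means, and was not called. Irf3, which turns on the interferon beta gene after RNA sensing, was lower in cTnT+ cells: -0.44 log2 against Flk1+Pdgfra+ (adjusted p = 0.0075) and -0.32 against Flk1+ cells (adjusted p = 0.0342). The call of Irf3 in cTnT+ against Flk1+ cells was lost without any single Flk1+Pdgfra+, the first or the second Flk1+ or the first cTnT+ array, with the number as a replicate block, in a fit of the 6 arrays compared or with trend and robust moderation (adjusted p from 0.0504 to 0.115). Irf4, a factor of lymphocytes, was lower in cTnT+ than in Flk1+Pdgfra+ cells by 1.36-fold (adjusted p = 0.0432). For Irf4, the call in cTnT+ against Flk1+Pdgfra+ cells did not hold without the first or the second Flk1+Pdgfra+, the second Flk1+ or any single cTnT+ array, with quantile normalization, without moderation or with every cluster tested (adjusted p from 0.0538 to 0.147). Irf8, at 6.59, 6.98 and 6.90 in the same group order, was not called, and Irf7, the interferon-induced factor that amplifies the response, was dim in every group.

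B2m was the only one of the 4 class I assembly genes that was called. It read 10.83, 11.01 and 11.45 in Flk1+Pdgfra+, 11.76, 11.79 and 11.86 in Flk1+ and 12.24, 12.62 and 12.74 in cTnT+ cells. The groups did not overlap, with cTnT+ cells highest and Flk1+Pdgfra+ cells lowest. The difference was 2.70-fold between cTnT+ and Flk1+Pdgfra+ cells (adjusted p = 0.000385) and 1.66-fold between cTnT+ and Flk1+ cells (adjusted p = 0.0119). Flk1+Pdgfra+ cells were 1.63-fold below Flk1+ cells (adjusted p = 0.0428). B2m was no longer called in Flk1+Pdgfra+ against Flk1+ cells without the first or the second Flk1+Pdgfra+, any single Flk1+ or the second cTnT+ array, without moderation, with median centring or with every cluster tested (adjusted p from 0.0524 to 0.144).

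Tap1 and Tap2, which form the peptide transporter, and Tapbp, which encodes tapasin, were called in no comparison. Tap1 read 7.06, 6.97 and 9.14 in Flk1+Pdgfra+, 6.52, 6.62 and 8.95 in Flk1+ and 7.14, 7.47 and 7.58 in cTnT+ cells. The third array of each progenitor group lay above all other arrays, and no comparison was called. Without the third arrays of both groups Tap1 was called higher in cTnT+ than in Flk1+ cells (log2 0.83, adjusted p = 0.00452, against 0.03 and 0.979 with them). Tapbp read 9.53, 9.64 and 9.41 in Flk1+Pdgfra+, 8.27, 8.58 and 9.56 in Flk1+ and 9.55, 9.56 and 9.61 in cTnT+ cells. Its first and second Flk1+ arrays were the lowest of the 9, and the third lay with the other groups. Tapbp was not called, but without the third Flk1+ array it passed as higher in Flk1+Pdgfra+ (log2 1.10, adjusted p = 0.00119) and in cTnT+ cells (log2 1.15, adjusted p = 0.000301). Tapbp also passed in Flk1+Pdgfra+ against Flk1+ cells without the third arrays of both progenitor groups or with array weights (adjusted p from 0.000132 to 0.0024). Tapbp also passed in cTnT+ against Flk1+ cells without the third arrays of both progenitor groups, with median centring or with array weights (adjusted p from 0.000483 to 0.0442). Tap2 read 6.84, 6.90 and 7.21 in Flk1+Pdgfra+, 6.68, 6.35 and 6.93 in Flk1+ and 6.84, 7.17 and 7.21 in cTnT+ cells, with overlap between all groups. The difference of Tap2 in cTnT+ against Flk1+ cells passed without the third Flk1+ array, without the third arrays of both progenitor groups, with the number as a replicate block or with array weights (adjusted p from 0.00634 to 0.0499).

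Psmb9, Tap1, Psmb8 and Tap2 lie in this order as direct neighbours on chromosome 17, and Psmb8 and Psmb9 encode subunits of the immunoproteasome. Psmb8 read 5.73, 5.78 and 5.63 in Flk1+Pdgfra+, 5.31, 5.28 and 5.65 in Flk1+ and 5.28, 5.11 and 5.64 in cTnT+ cells, and Psmb9 read 6.55, 6.80 and 6.89, 6.60, 6.32 and 6.27 and 6.29, 6.51 and 6.52. Neither shared the high values of Tap1 on the third array of either progenitor group, and neither was called.

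The 10 class I genes with a cluster of their own were nonclassical genes of the H2-M and H2-Q groups, and 8 of them were dim in all groups. H2-M10.4 was called higher in cTnT+ cells, by 0.30 log2 against Flk1+Pdgfra+ (adjusted p = 0.0331) and 0.28 against Flk1+ cells (adjusted p = 0.0433), but both progenitor means, 5.42 and 5.43, were dim. The call of H2-M10.4 in cTnT+ against Flk1+Pdgfra+ cells was lost without the second or the third Flk1+Pdgfra+ or the second or the third cTnT+ array, without the third arrays of both progenitor groups, with the number as a replicate block, with median centring or with every cluster tested (adjusted p from 0.0509 to 0.283). For H2-M10.4, the call in cTnT+ against Flk1+ cells did not hold without the second Flk1+Pdgfra+, any single Flk1+ or any single cTnT+ array, without the third arrays of both progenitor groups, with the number as a replicate block, in a fit of the 6 arrays compared, with median centring, with every cluster tested or with array weights (adjusted p from 0.0573 to 0.301). H2-M10.3, with means of 5.75, 5.62 and 5.70, was not called. The classical heavy chain genes share clusters, and near-identical sequences let their probes read more than 1 gene. The cluster shared by H2-K1, H2-K2 and H2-D1 had means of 8.35, 8.08 and 8.59, and was 1.42-fold higher in cTnT+ than in Flk1+ cells (adjusted p = 0.0355 with every cluster tested). Other clusters naming H2-D1 were called in no comparison, and the brightest of them, which also names H2-K1, had means of 7.14, 7.58 and 7.91. A cluster shared by H2-T22, H2-T10, H2-T9 and other names had means of 6.76, 6.62 and 8.21, 2.73-fold higher in cTnT+ than in Flk1+Pdgfra+ cells (adjusted p = 0.025) and 3.00-fold higher than in Flk1+ cells (adjusted p = 0.0173). The cluster shared by H2-T10 and H2-T22 alone did not share this rise. Its means of 5.10, 5.28 and 4.68 were dim, and cTnT+ cells were not called against Flk1+Pdgfra+ (adjusted p = 0.63) or Flk1+ cells (adjusted p = 0.47). These clusters were outside the 55 genes.

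Among class II genes, H2-Ab1 had the largest difference of all 55 genes in both comparisons with cTnT+ cells. H2-Ab1, the class II beta chain, read 6.69, 6.72 and 6.89 in Flk1+Pdgfra+, 5.91, 6.07 and 6.14 in Flk1+ and 10.14, 10.29 and 8.91 in cTnT+ cells. Every cTnT+ array lay at least 2 log2 units above every progenitor array, with the third cTnT+ array the lowest of the 3. H2-Ab1 was 8.07-fold higher in cTnT+ than in Flk1+Pdgfra+ cells (adjusted p = 0.000167) and 13.3-fold higher than in Flk1+ cells (adjusted p = 8.27e-05). The progenitor groups did not overlap, but their difference of 0.73 log2 missed the threshold (adjusted p = 0.197) and passed without the third cTnT+ array (adjusted p = 0.00634). H2-Ab1 also passed in Flk1+Pdgfra+ against Flk1+ cells in a fit of the 6 arrays compared or with array weights (adjusted p from 0.00575 to 0.00943).

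Other class II genes did not share the rise of H2-Ab1. Its neighbour on chromosome 17 and partner chain, H2-Aa, was dim in all groups, and read 5.15, 4.81 and 4.95 in Flk1+Pdgfra+, 4.84, 4.69 and 4.90 in Flk1+ and 5.06, 4.92 and 5.03 in cTnT+ cells. Cd74, the invariant chain that escorts class II molecules, was lower in cTnT+ than in Flk1+Pdgfra+ cells by 1.18-fold (adjusted p = 0.0376). Cd74 was no longer called in cTnT+ against Flk1+Pdgfra+ cells without any single Flk1+Pdgfra+, the second Flk1+ or any single cTnT+ array, without the third arrays of both progenitor groups, with the number as a replicate block, with quantile normalization, in a fit of the 6 arrays compared, with trend and robust moderation or with every cluster tested (adjusted p from 0.0519 to 0.122). H2-Ea was dim in all groups and H2-DMa, which loads class II molecules, was not called (7.05, 6.38 and 6.85). H2-Oa, which modulates that loading, was 1.45-fold higher in cTnT+ than in Flk1+ cells (adjusted p = 0.0467). The call of H2-Oa in cTnT+ against Flk1+ cells was lost without the first or the second Flk1+Pdgfra+, the first or the second Flk1+ or the first or the second cTnT+ array, with the number as a replicate block, in a fit of the 6 arrays compared, without moderation, with median centring or with every cluster tested (adjusted p from 0.0568 to 0.149). H2-Ke6, the enzyme gene, was 1.64-fold higher in cTnT+ than in Flk1+Pdgfra+ cells (adjusted p = 0.00483) and 1.57-fold higher than in Flk1+ cells (adjusted p = 0.00837).

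Class II molecules and Irf5 are known from immune cells, so the immune markers are given beside these results. Of 16 measured blood and immune markers, 4 were higher and 2 lower in cTnT+ than in Flk1+Pdgfra+ cells, and 0 were higher and 6 lower in cTnT+ than in Flk1+ cells (limma, 2 higher at an unadjusted p under 0.05). Each was 37.5% of the markers, beside 41.2% and 39.2% of all genes. Their mean level ranged over 6.52 to 6.75 in Flk1+Pdgfra+, 7.16 to 7.68 in Flk1+ and 6.67 to 7.34 in cTnT+ cells. By cTnT+ array, the mean over the 16 markers was 6.67, 6.73 and 7.34. Csf1r, the macrophage growth factor receptor, and Ptprc, the pan-leukocyte marker, are 2 of these 16, named after their values were seen. Within cTnT+ cells, Csf1r read 6.07, 6.13 and 7.58 and Ptprc read 4.55, 4.44 and 5.67. Both were highest on the third array. On that array H2-Ab1, Irf5 and the mean over 10 cardiomyocyte markers were lowest (the mean 10.7 against 11.6 and 10.9). The mean over 12 fibroblast and smooth muscle markers was highest there (10.4 against 9.09 and 9.21). The part of immune cells, or of any other cells, in these differences was not tested.

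**Figure D4:**
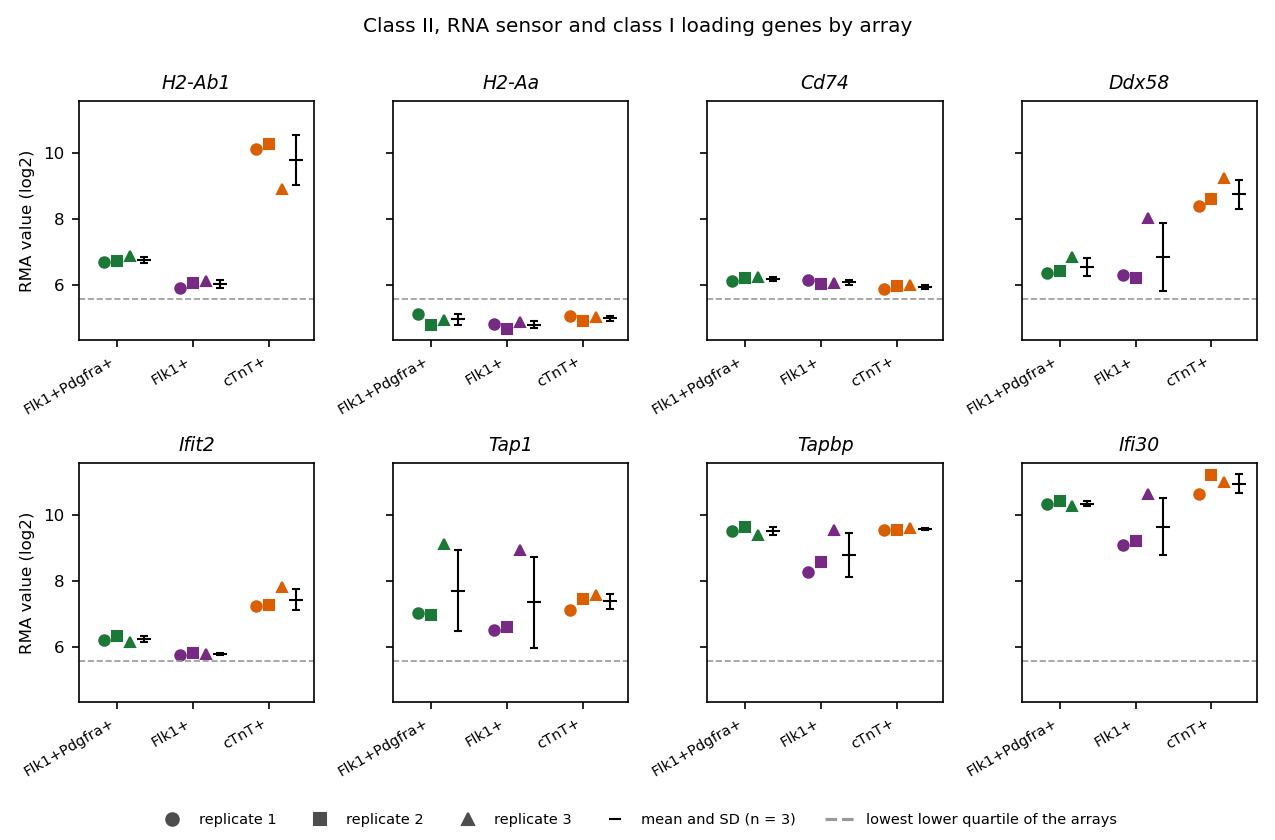
Log2 RMA level of 8 genes by array: symbols mark replicate numbers, the black bar the mean and SD of 3 arrays, and the dashed line the lowest lower quartile of the arrays (5.60). H2-Ab1 is high on the cTnT+ arrays while H2-Aa and Cd74 are not, and Tap1, Tapbp, Ifi30 and Ddx58 are high on the third Flk1+ array.

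Of the cytosolic RNA sensors, Ddx58 rose in cTnT+ cells and Ifih1 was not called. Ddx58, which encodes RIG-I, read 6.37, 6.43 and 6.87 in Flk1+Pdgfra+, 6.31, 6.22 and 8.03 in Flk1+ and 8.40, 8.62 and 9.24 in cTnT+ cells. Every cTnT+ array lay above every progenitor array, and the third Flk1+ array was the nearest to them. Ddx58 was 4.59-fold higher in cTnT+ than in Flk1+Pdgfra+ cells (adjusted p = 0.00562) and 3.74-fold higher than in Flk1+ cells (adjusted p = 0.0119). Without the third Flk1+ array the latter difference was 2.49 log2, against 1.90 with it. Ifih1, which encodes MDA5, read 5.80, 5.93 and 5.60 in Flk1+Pdgfra+, 5.07, 5.20 and 5.45 in Flk1+ and 5.20, 5.78 and 6.32 in cTnT+ cells. Its Flk1+ mean was dim, and it passed as higher in cTnT+ than in Flk1+ cells only without the first cTnT+ array (log2 0.81, adjusted p = 0.0153) or with array weights (log2 0.57, adjusted p = 0.0406).

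Interferon-induced effectors gave a mixed picture. Ifit2, a strongly interferon-induced antiviral gene, read 6.23, 6.34 and 6.17 in Flk1+Pdgfra+, 5.78, 5.83 and 5.81 in Flk1+ and 7.26, 7.27 and 7.82 in cTnT+ cells. The 3 groups did not overlap, and cTnT+ cells were 2.31-fold above Flk1+Pdgfra+ (adjusted p = 0.00036) and 3.13-fold above Flk1+ cells (adjusted p = 0.000107). Ifit1, of the same antiviral family, was dim in all groups (4.40, 4.50 and 4.85). The Ifi200 genes Ifi202b, Ifi203 and Ifi205, whose relatives sense DNA, were also dim in all groups, and their close similarity leaves their separate values uncertain.

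Ifitm3, which blocks virus entry and also marks early germ cells, read 9.14, 9.29 and 9.28 in Flk1+Pdgfra+, 9.58, 10.03 and 11.22 in Flk1+ and 8.22, 9.24 and 9.55 in cTnT+ cells. Every Flk1+ array lay above every array of the other groups, and the third was the highest. The differences, -1.04 log2 between Flk1+Pdgfra+ and Flk1+ cells (adjusted p = 0.189) and -1.27 between cTnT+ and Flk1+ cells (adjusted p = 0.0525), were not called. The difference of Ifitm3 in Flk1+Pdgfra+ against Flk1+ cells passed with array weights (adjusted p = 0.00726). The difference of Ifitm3 in cTnT+ against Flk1+ cells passed without the first Flk1+ or the third cTnT+ array, with the number as a replicate block, with quantile normalization, with median centring, with dim genes removed or with array weights (adjusted p from 0.016 to 0.0433). Ifitm10 was 1.27-fold higher in cTnT+ than in Flk1+ cells (adjusted p = 0.0142), a call that median centring ended (adjusted p = 0.154), whereas Ifitm5 and Ifitm7 were not called.

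Bst2, the tetherin gene, read 7.83, 7.64 and 7.89 in Flk1+Pdgfra+, 8.06, 7.97 and 8.35 in Flk1+ and 8.12, 8.03 and 7.66 in cTnT+ cells. The largest difference between its group means was -0.34 log2, and none was called. Ifi30, the lysosomal reductase that prepares antigens for class II loading, read 10.35, 10.43 and 10.27 in Flk1+Pdgfra+, 9.09, 9.22 and 10.65 in Flk1+ and 10.64, 11.21 and 11.01 in cTnT+ cells. The third Flk1+ array lay among the cTnT+ arrays, and the others were the lowest of the 9. Ifi30 was 2.47-fold higher in cTnT+ than in Flk1+ cells (adjusted p = 0.0243). For Ifi30, the call in cTnT+ against Flk1+ cells did not hold without the first or the second Flk1+ or the second or the third cTnT+ array, in a fit of the 6 arrays compared or without moderation (adjusted p from 0.0613 to 0.088). Without the third Flk1+ array the difference was 1.80 log2.

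Small calls completed the effectors. Ifi35, an interferon-induced leucine zipper gene, was 1.43-fold higher in cTnT+ than in Flk1+Pdgfra+ cells (adjusted p = 0.0399). Ifi35 was no longer called in cTnT+ against Flk1+Pdgfra+ cells without any single Flk1+Pdgfra+ or the first or the second Flk1+ array, without the third arrays of both progenitor groups, in a fit of the 6 arrays compared, without moderation, with median centring or with every cluster tested (adjusted p from 0.0526 to 0.0995). Ifi27l2a was 1.28-fold lower in cTnT+ than in Flk1+Pdgfra+ cells (adjusted p = 0.0261), with a dim cTnT+ mean of 5.27. The call of Ifi27l2a in cTnT+ against Flk1+Pdgfra+ cells was lost without any single Flk1+Pdgfra+ or the first or the second cTnT+ array or without the third arrays of both progenitor groups (adjusted p from 0.0605 to 0.081). Its chromosome 12 neighbours Ifi27 and Ifi27l2b were not called, and Ifi27 was dim in all groups.

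The third Flk1+ array lay at least 1 log2 unit above the mean of the first and second for 6 of the 55 genes, namely Tap1, Tapbp, Ifitm3, Irf1, Ifi30 and Ddx58, and at least 1 below for none. The third Flk1+Pdgfra+ array did so for 1 gene, Tap1. The first and second arrays of these groups were never 1 log2 unit apart for any of the 55 genes, and their largest gaps were 0.54 for Ifit1 in Flk1+Pdgfra+ and 0.86 for H2-M10.5 in Flk1+ cells. The part of the pluripotent, endothelial and other marker levels of the third Flk1+ array in these values was not tested.

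Other markers moved with the groups as well. All 12 endothelial markers were lower in Flk1+Pdgfra+ than in Flk1+ cells and 10 were higher in cTnT+ than in Flk1+Pdgfra+ cells, the directions of Ifngr2, Stat3, Stat5a, Stat5b, Irf2 and B2m. In cTnT+ against Flk1+ cells 1 of the 12 markers was higher and 4 were lower, with a median difference of -0.93 log2. There Ifngr2 and B2m were higher, and Stat3, Stat5a, Stat5b and Irf2 were not called. The endothelial calls were 100%, 83.3% and 41.7% of the markers in these comparisons, beside 10.5%, 41.2% and 39.2% of all genes. The endothelial mean level ranged over 6.87 to 8.60 in Flk1+Pdgfra+, 10.5 to 11.7 in Flk1+ and 10.1 to 10.9 in cTnT+ cells. Of 12 fibroblast and smooth muscle markers, 9 were higher in cTnT+ than in Flk1+Pdgfra+ and 10 than in Flk1+ cells, with mean levels of 7.17 to 7.43 in Flk1+Pdgfra+, 6.54 to 7.70 in Flk1+ and 9.09 to 10.4 in cTnT+ cells. These fibroblast and smooth muscle calls were 75% and 83.3% of the markers, beside 41.2% and 39.2% of all genes. All 7 measured nascent mesoderm markers (8 listed) went the opposite way to the endothelial markers. They were higher in Flk1+Pdgfra+ than in Flk1+ cells and lower in cTnT+ than in Flk1+Pdgfra+ cells. In cTnT+ against Flk1+ cells 0 were higher and 3 lower. Nascent mesoderm calls were 100%, 100% and 42.9% of the markers, beside 10.5%, 41.2% and 39.2% of all genes. The part of the endothelial, fibroblast, smooth muscle and nascent mesoderm markers in the results was not tested.

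Genes around the 55 were read from 3 further lists. Of 20 measured genes for interferon ligands, kinases and signalling (25 listed), 0 were higher and 5 lower in Flk1+Pdgfra+ than in Flk1+ cells by limma, with 1 higher and 6 lower at an unadjusted p under 0.05. In cTnT+ cells 8 were higher and 2 lower than in Flk1+Pdgfra+, and 5 were higher and 5 lower than in Flk1+ cells. Calls thus made up 25%, 50% and 50% of this list in the 3 comparisons, beside 10.5%, 41.2% and 39.2% of all genes. Tlr3, a sensor of double-stranded RNA, was 8.10-fold lower in Flk1+Pdgfra+ than in Flk1+ cells (adjusted p = 0.00267), the largest difference of this list between the progenitors. For Tbk1, the call in Flk1+Pdgfra+ against Flk1+ cells did not hold without any single Flk1+Pdgfra+, the first or the second Flk1+ or the second cTnT+ array, without the third arrays of both progenitor groups, with the number as a replicate block, with quantile normalization, with median centring, with trend and robust moderation or with every cluster tested (adjusted p from 0.0529 to 0.178). Tlr3 was no longer called in cTnT+ against Flk1+Pdgfra+ cells without any single Flk1+Pdgfra+, the first Flk1+ or the second or the third cTnT+ array, without the third arrays of both progenitor groups, with the number as a replicate block, with quantile normalization, without moderation, with median centring or with every cluster tested (adjusted p from 0.0519 to 0.145). Mavs, the adaptor below Ddx58, was 1.78-fold higher in cTnT+ than in Flk1+Pdgfra+ cells (adjusted p = 0.000511), and Ptpn2, a phosphatase that restrains Jak kinases, was 1.82-fold lower (adjusted p = 0.000342). Ifnb1, the interferon beta gene, was dim in all groups.

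Of 33 measured further interferon-stimulated genes (48 listed), 0 were higher and 3 lower in Flk1+Pdgfra+ than in Flk1+ cells by limma, with 2 higher and 6 lower at an unadjusted p under 0.05. In cTnT+ cells 4 were higher and 2 lower than in Flk1+Pdgfra+, and 5 were higher and 6 lower than in Flk1+ cells. Calls thus made up 9.09%, 18.2% and 33.3% of the list, beside 10.5%, 41.2% and 39.2% of all genes, so none of the shares exceeded the background. The median differences were 0.02, 0.02 and 0.12 log2 in these comparisons. Trim30a was 4.92-fold higher in cTnT+ than in Flk1+Pdgfra+ cells (adjusted p = 7.15e-05), whose mean of 5.07 was dim. Rsad2, which encodes the antiviral enzyme viperin, was 3.10-fold lower in Flk1+Pdgfra+ than in Flk1+ cells (adjusted p = 0.0134) and 2.62-fold lower in cTnT+ than in Flk1+ cells (adjusted p = 0.0075). The call of Rsad2 in Flk1+Pdgfra+ against Flk1+ cells was lost without the first Flk1+Pdgfra+ array (adjusted p = 0.053). Rnf213, a large ubiquitin ligase gene, read 9.38, 9.17 and 9.78 in Flk1+Pdgfra+, 5.99, 6.55 and 8.83 in Flk1+ and 9.29, 9.16 and 9.56 in cTnT+ cells and was called in cTnT+ against Flk1+ cells (adjusted p = 0.0229). For Rnf213, the call in cTnT+ against Flk1+ cells did not hold without the first or the second Flk1+ or any single cTnT+ array, in a fit of the 6 arrays compared or without moderation (adjusted p from 0.0502 to 0.082). Its progenitor difference of 2.32 log2 was not called (adjusted p = 0.0534). The difference of Rnf213 in Flk1+Pdgfra+ against Flk1+ cells passed without the third Flk1+ array, without the third arrays of both progenitor groups, with the number as a replicate block, with quantile normalization, with median centring, with dim genes removed or with array weights (adjusted p from 3.83e-05 to 0.0431). With the replicate block, the list thus had 1 gene higher and 2 lower in Flk1+Pdgfra+ than in Flk1+ cells, as Trim30a was lost as lower (adjusted p = 0.0668). Parp12 was 3.03-fold higher in cTnT+ than in Flk1+ cells (adjusted p = 0.0276). Parp12 was no longer called in cTnT+ against Flk1+ cells without the first or the second Flk1+ or the first or the third cTnT+ array, in a fit of the 6 arrays compared or without moderation (adjusted p from 0.0587 to 0.0907). Mx1 and Oas1b, classical targets of type I interferon, were dim in all groups.

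Of 11 measured processing genes of the class I and II pathways (14 listed), none was called in Flk1+Pdgfra+ against Flk1+ cells by limma, with 2 higher and 0 lower at an unadjusted p under 0.05. Against Flk1+Pdgfra+ cells 1 was higher and 2 were lower in cTnT+ cells, and against Flk1+ cells 1 was higher and 0 were lower. Calls thus made up 0%, 27.3% and 9.09% of the list, beside 10.5%, 41.2% and 39.2% of all genes. In cTnT+ cells Psme1, a proteasome activator subunit, was 1.42-fold higher than in Flk1+Pdgfra+ (adjusted p = 0.00761) and 1.78-fold higher than in Flk1+ cells (adjusted p = 0.000767). Psmb10, an immunoproteasome subunit, was 1.62-fold lower in cTnT+ than in Flk1+Pdgfra+ cells (adjusted p = 0.00962). Calr, Canx and Pdia3, chaperones of class I folding, had differences between -0.11 and 0.06 log2 and were not called.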

How the data were processed

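Per the labels, the deposited values are log2 RMA levels of core genes from the Transcriptome Analysis Console, and the submitters' processing notes name R 3.3.1 and RMA. The genome build of the array annotation is not given in the sources used here. Of 23332 transcript clusters, 14996 carried 1 symbol, 1019 several and 7317 none. Symbols were updated through RefSeq GRCm38.p6 (14941 matched, 55 kept as deposited), and the brightest cluster per gene was used, leaving 14860 genes.

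A linear model with a mean for each group was fitted to all 9 arrays in limma 3.58.1 (lmFit, then eBayes with no trend, under R 4.3.3), with two-sided tests on 6 residual degrees of freedom. Benjamini-Hochberg adjustment ran over all genes, and intervals are at 95%. Scripts were checked on simulated data. The arrays carry no depth, and 3 arrays per group limit the precision.

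Every array value is given for called members with the 8 largest changes in a comparison and for a fixed set of central genes, and other called members are named with their difference. Of further lists, counts and up to 4 called genes with the largest changes are given. Csf1r, Ptprc, Psmb8, Psmb9, Calr, Canx, Pdia3, Ifnb1, Mx1 and Oas1b were named after their values were seen. Members and lists were chosen with earlier results of these data known. Same-numbered arrays of the progenitor groups deviated together (Pearson r across genes 0.251, 0.325 and 0.460), which makes them pairs by the rule used, from the data and not from the labels. However, the first Flk1+Pdgfra+ with the second Flk1+ array gave 0.347, and the second with the first gave 0.352. Numbers 1 and 2 are thus not matched by these values. Only the third arrays stood together, with r from -0.409 to -0.351 against the first and second arrays of the other group. With the replicate number as a block, the same 6 members were called lower in Flk1+Pdgfra+ than in Flk1+ cells. The block was 1 of 20 alternative settings tried.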

Additional observations from a re-analysis of the deposited data

How the results depend on the processing

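Of 44 called differences of the 55 genes, 32 passed the threshold under each of the 20 alternatives, 12 were lost under at least 1, and none reversed under these alternatives. Of 55 uncalled differences of named genes, 28 passed under at least 1 alternative. Genes called higher in Flk1+Pdgfra+ than in Flk1+ cells numbered 19 with array weights, 2 in a fit of the 6 arrays compared and 4 without the third arrays of both progenitor groups, against 0 in the reported fit. Genes called lower there numbered 16 with array weights against 6. Genes lower in cTnT+ than in Flk1+Pdgfra+ cells numbered 1 with dim genes removed against 3. Genes lower in cTnT+ than in Flk1+ cells numbered 2 with dim genes removed, with quantile normalization or with median centring, 0 with trend and robust moderation or in a fit of 6 arrays, and 3 with array weights or without the third arrays of both progenitor groups, against 1. Leaving out 1 array gave 0 to 4 higher and 5 to 8 lower in Flk1+Pdgfra+ against Flk1+, 16 to 20 higher and 1 to 3 lower in cTnT+ against Flk1+Pdgfra+, and 11 to 17 higher and 0 to 2 lower in cTnT+ against Flk1+ cells. The replicate block gave 0 higher and 6 lower in Flk1+Pdgfra+ against Flk1+, 18 higher and 4 lower in cTnT+ against Flk1+Pdgfra+, and 14 higher and 1 lower in cTnT+ against Flk1+ cells. Of further lists, the block moved the progenitor counts of interferon-stimulated genes from 0 higher and 3 lower to 1 and 2, and those of signalling genes from 5 lower to 4. Arrays of cTnT+ cells did not pair with progenitor arrays of the same number (r between 0.023 and 0.0951). Median centring shifted the median of all genes by -0.11 log2 in cTnT+ against Flk1+Pdgfra+ cells. Over all genes, calls in Flk1+Pdgfra+ against Flk1+ cells ranged from 203 to 4521 higher (690 reported) and from 461 to 3017 lower (872 reported). Array weights ran from 0.251 for the third Flk1+ array to 7.73. The causes of these changes were not tested. Dim probes limit what can be read for 16 of the 55 genes.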
